A study of Mus musculus with 9 samples.

Results

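The cytochrome P450 (Cyp), flavin-containing monooxygenase (Fmo) and aldehyde dehydrogenase (Aldh) genes were followed in mouse lung after silica. Members were the genes whose symbol is Cyp, Fmo or Aldh followed by a digit, without names ending in -ps, and whose level reached 0.5 FPKM (fragments counted, scaled for exonic length and library total) in at least 3 of 9 libraries. Of 55359 genes in the table, 57 were members. Another 80 genes with such names fell short of the level, 41 of them with no count in any library. The level did not look at the groups, and 51 members reached it in all 9 libraries.

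All mice were male C57BL/6J, 6 to 8 weeks old, and lungs were taken on day 28 after fluid had been instilled through the trachea. That fluid was saline in Control and saline with 5 mg of silica in Silica, a dust whose inhalation scars the lung (silicosis). Silica + ATL-III mice received silica and, into the abdomen, 30 mg/kg per day of atractylenolide III (ATL-III), a sesquiterpene lactone. The study title names autophagy and signalling from the EGF receptor to mTOR as the subject. No group received ATL-III without silica, no injection is described for the other groups, and the length of dosing is not stated. The study had 20 mice per group, of which 3 libraries per group were analysed here. Whether a library stands for 1 mouse is not stated in the labels. The p-values therefore rest on library-to-library spread, which may be partly technical.

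P450s are heme enzymes that insert an oxygen atom into drugs, pollutants, fatty acids, sterols and retinoids, using electrons that most of them receive from the reductase Por. Flavin-containing monooxygenases oxygenate nitrogen and sulfur atoms of foreign compounds, and aldehyde dehydrogenases turn aldehydes, including retinaldehyde and products of lipid peroxidation, into acids. In mouse lung, club cells (secretory cells of the small airways) are known for a high P450 content, and Fmo2 is known as the main lung flavin monooxygenase.

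Sequencing gave 16047175 to 17792481 counted reads per library, and libraries of the same group differed by more than sampling noise. The lung secretory and alveolar markers were abundant in every library, with Scgb1a1 between 34593 and 94851 FPKM. Markers of hepatocytes, the cells best known for many of these enzymes, summed to 1.07 to 3.33 FPKM in 7 libraries. They summed to 17.3 and 12.3 FPKM in Silica + ATL-III 1 and 2, of which Tat gave 15.9 and 7.75 FPKM, and albumin reached at most 2.75 FPKM. Several marker lists differed between groups. Of 9 macrophage markers 7 were higher in Silica than in Control, 10 of 10 neutrophil markers were higher in Silica + ATL-III than in either other group, and 6 of 8 heart muscle and 4 of 7 smooth muscle markers were lower in Silica than in Control. Of 10 alveolar type 2 cell markers 5 were higher in Silica than in Control and 5 were lower in Silica + ATL-III than in Silica. Of 10 fibroblast markers 5 were lower in Silica + ATL-III than in Silica and 1 was higher. These calls are by edgeR, described below, and 2 other tools gave other counts. In Silica against Control limma called 1 type 2 cell marker and 5 macrophage markers higher, and DESeq2 called 6 and 8. Heart muscle markers lower there numbered 5 by limma and 6 by DESeq2. DESeq2 called 7 of 10 neutrophil markers higher in Silica + ATL-III than in either other group. No listed marker was at 0 in all libraries.

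Levels spanned more than 3 orders of magnitude on the FPKM scale, which is per length and so lets genes be compared. Cyp2f2, the club cell P450 that activates naphthalene, had the highest mean over 9 libraries, at 595 FPKM. It was followed by Aldh1a1 (364 FPKM), which oxidises retinaldehyde, Cyp2b10 (219.5 FPKM), Fmo2 (212 FPKM) and Cyp4b1 (175 FPKM). Cyp2f2 was above Aldh1a1, and Aldh1a1 above Cyp2b10, in all 9 libraries. The next neighbours were not separated by their spread: the library ranges of Cyp2b10 (132 to 406 FPKM), Fmo2 (107 to 315 FPKM) and Cyp4b1 (102 to 293 FPKM) covered one another. Aldh1a7, Cyp2a5, Aldh2 and Fmo1 were also among the 10 highest, with means of 92.3, 59.1, 57.1 and 47.6 FPKM. The 10 highest members held 85.0% of the summed FPKM of all members. At the low end, 15 members had a mean under 2 FPKM. Just inside the level needed for membership stood Cyp46a1, with its 3 highest libraries at 0.72, 0.54 and 0.52 FPKM, and just outside stood Aldh1a3, with 0.50, 0.41 and 0.35 FPKM.

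**Figure D1:**
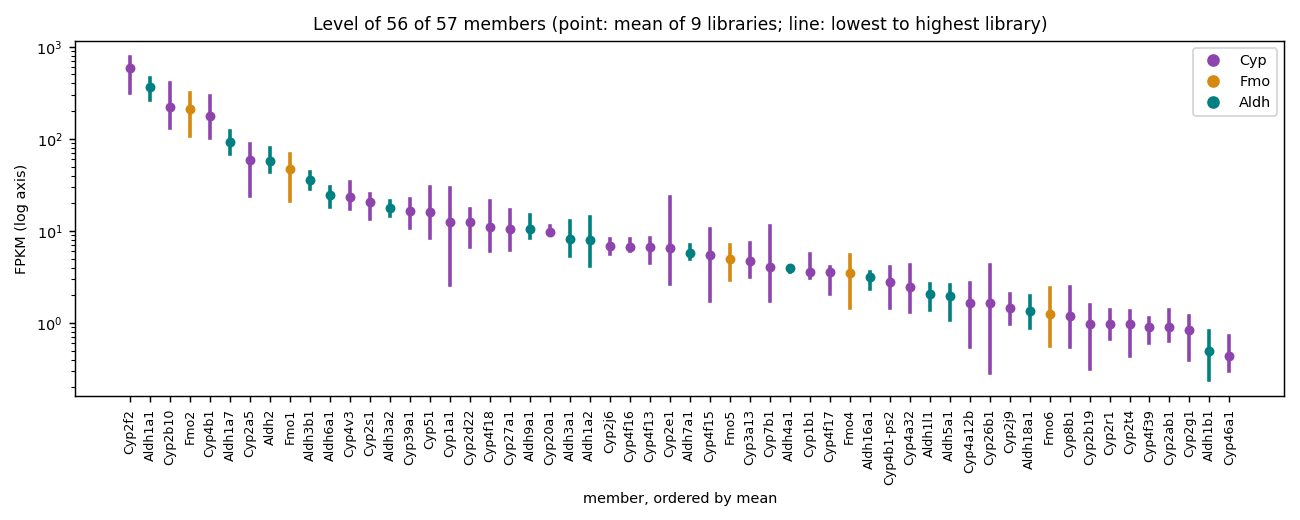
Level of 56 of the 57 members in FPKM on a log axis, ordered by mean, with a point for the mean of 9 libraries and a line from the lowest to the highest library, coloured by family. Cyp2f2 and Aldh1a1 stand at the top with means of 595 and 364 FPKM, and Cyp46a1 stands at the bottom.

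Several members sit side by side in the genome (GRCm38, GENCODE M21). Fmo4, Fmo1, Fmo2 and Fmo6 lie within 144.3 kb at chr1:162793188-162937515, while Fmo5 lies apart on chromosome 3. A run of 7 P450 genes of family 2, among them Cyp2b10, Cyp2a5 and Cyp2f2, lie at chr7:25802475-27158668. Aldh1a1 and Aldh1a7 are neighbours at chr19:20492715-20727562. Of 57 members 56 are annotated as protein coding, and Cyp4b1-ps2 is a pseudogene that the name rule kept. Neighbouring copies share sequence, so their counts are uncertain: 49.45% of the distinct 50-base words of Cyp4a12b transcripts also occur in another gene, Cyp4a12a, and the shares were 43.83% for Cyp4a32, 37.03% for Cyp2a5 and 34.15% for Cyp4b1-ps2.

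Promoter sequence was available for 45 of 57 members (RefSeq, GRCm38.p6). Shown here are the 250 bases before the most upstream start in the RefSeq table of 4 members on which the results below turn: Cyp1a1 and Cyp51, which were lower in Silica + ATL-III than in Silica while most called members were higher, and Cyp2b10 and Fmo2, which are among the most abundant. Capitals mark the motifs searched, on both strands. Cyp1a1 is at chr9:57697363-57697612 on the plus strand, Cyp51 at chr5:4104698-4104947 on the minus strand, Cyp2b10 at chr7:25897408-25897657 on the plus strand and Fmo2 at chr1:162898759-162899008 on the minus strand. The GENCODE gene models start elsewhere: the Cyp1a1 window lies wholly within the gene at chr9:57687928-57703824, and the Cyp51 and Cyp2b10 windows overlap the first bases of theirs.
Cyp1a1: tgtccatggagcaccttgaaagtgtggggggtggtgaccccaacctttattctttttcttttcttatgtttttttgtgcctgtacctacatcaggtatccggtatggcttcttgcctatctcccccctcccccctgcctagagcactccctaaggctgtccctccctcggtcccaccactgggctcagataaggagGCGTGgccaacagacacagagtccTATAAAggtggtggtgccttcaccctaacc
Cyp51: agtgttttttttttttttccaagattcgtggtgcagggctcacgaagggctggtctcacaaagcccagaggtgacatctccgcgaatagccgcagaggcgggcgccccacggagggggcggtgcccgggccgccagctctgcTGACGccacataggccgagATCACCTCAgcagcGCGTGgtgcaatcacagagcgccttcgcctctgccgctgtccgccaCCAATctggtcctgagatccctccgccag
Cyp2b10: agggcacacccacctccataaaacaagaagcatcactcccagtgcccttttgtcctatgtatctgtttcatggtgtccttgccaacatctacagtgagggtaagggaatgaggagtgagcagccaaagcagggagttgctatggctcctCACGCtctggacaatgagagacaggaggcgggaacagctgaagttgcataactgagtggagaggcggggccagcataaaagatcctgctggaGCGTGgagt
Fmo2: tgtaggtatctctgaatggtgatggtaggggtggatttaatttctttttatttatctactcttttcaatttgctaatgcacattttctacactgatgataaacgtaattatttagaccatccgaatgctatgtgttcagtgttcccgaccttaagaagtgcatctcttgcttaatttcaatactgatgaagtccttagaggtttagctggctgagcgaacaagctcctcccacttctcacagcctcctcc

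The Cyp1a1 sequence holds GCGTG, the core bound by the aryl hydrocarbon receptor (AHR), starting 54 bases before the start, and TATAAA, the TATA box, 30 bases before it. GCGTG is short and common: 28.16% of all 32851 promoter sequences of that length hold it, and so does at least 1 start of 16 of the 45 members. The Cyp2b10 sequence holds the same core at 101 and 9 bases before the start. In Cyp51 a sterol response element, ATCACNNCA, begins 89 bases before the start, CCAAT 29 bases, TGACG (a CRE half-site) 108 bases and GCGTG 75 bases before it. ATCACNNCA occurs in 2.3% of all promoter sequences, and among members in those of Cyp51 and Cyp4v3. CCAAT and TGACG occur in 33.85% and 17.77% of all promoter sequences, and TATAAA in 12.37%. None of the motifs searched was found in the Fmo2 window shown, including the nuclear receptor half-site AGGTCA (14.02% of all), CACGTG (6.02%, an E-box), TGTTTAC (3.17%, forkhead) and TGACNNNGC (10.16%, antioxidant response). AGGTCA and TGTTTAC each do occur before at least 1 other RefSeq start of Fmo2, which is not shown. TGACG and TGACNNNGC share their first 4 letters and can overlap. A match describes letters only and is not evidence of binding.

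Counts of 18103 genes were compared between groups with the quasi-likelihood test of edgeR, and calls required a p under 0.05 after Benjamini-Hochberg adjustment over all of them. Fold changes are log2 values on the TMM scale, given with their standard error (SE), while levels are FPKM. The summed FPKM of the members was 2576, 2355 and 2597 in Control, 1445, 1658 and 1819.7 in Silica, and 2166, 2967 and 2291 in Silica + ATL-III. The Silica libraries were thus below all others in this sum, and the other groups overlapped. In whole lung, fewer cells of a type and less RNA per cell cannot be told apart.

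In Silica against Control, 11 of 57 members fell, or 19.3%, beside 5.81% of all genes tested. Only 4 members rose, or 7.02%, beside 8.36% of all genes. The median log2 change was -0.27 over the members and 0.00 over all genes. In Silica + ATL-III against Silica, 22 of 57 members rose, or 38.6%, beside 9.95% of all genes, and 4 fell, or 7.02%, beside 8.58%. The median was 0.45 over the members and 0.00 over all genes. In Silica + ATL-III against Control, 10 members rose, or 17.5%, beside 8.60% of all genes, and 1 fell, or 1.75%, beside 5.42%. The median was 0.19 over the members and 0.01 over all genes. The comparisons share groups: the Silica libraries enter the first and the second, so a low Silica value moves both. Within the larger role lists below, of 11 to 16 members, a single call is 6.25% to 9.09% of the list, near the share of all genes, and says nothing about the list. Scaling moved these counts. With TPM in place of TMM scaling the median of all genes was -0.21, -0.12 and -0.32 in the 3 comparisons, the members higher and lower numbered 4 and 24, 18 and 4, and 2 and 12, and the median of the members in Silica + ATL-III against Control was -0.13. Over all genes, the share of calls that were higher was 59.0%, 53.7% and 61.3% with TMM, 17.7%, 30.4% and 13.1% with TPM scaling, and 33.2%, 46.4% and 35.1% with library totals alone. Upper-quartile factors gave 48.3% in Silica + ATL-III against Control. In that comparison limma on log2 FPKM called 2 members higher and 4 lower, beside 5.36% and 9.60% of all genes at a pseudocount of 0.5. With TPM scaling 4.10%, 6.72% and 4.59% of all genes were higher in the 3 comparisons, and 19.1%, 15.4% and 30.4% were lower. Against Control the share of members called was thus below that of all genes in both directions, by limma and with TPM scaling.

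**Figure D2:**
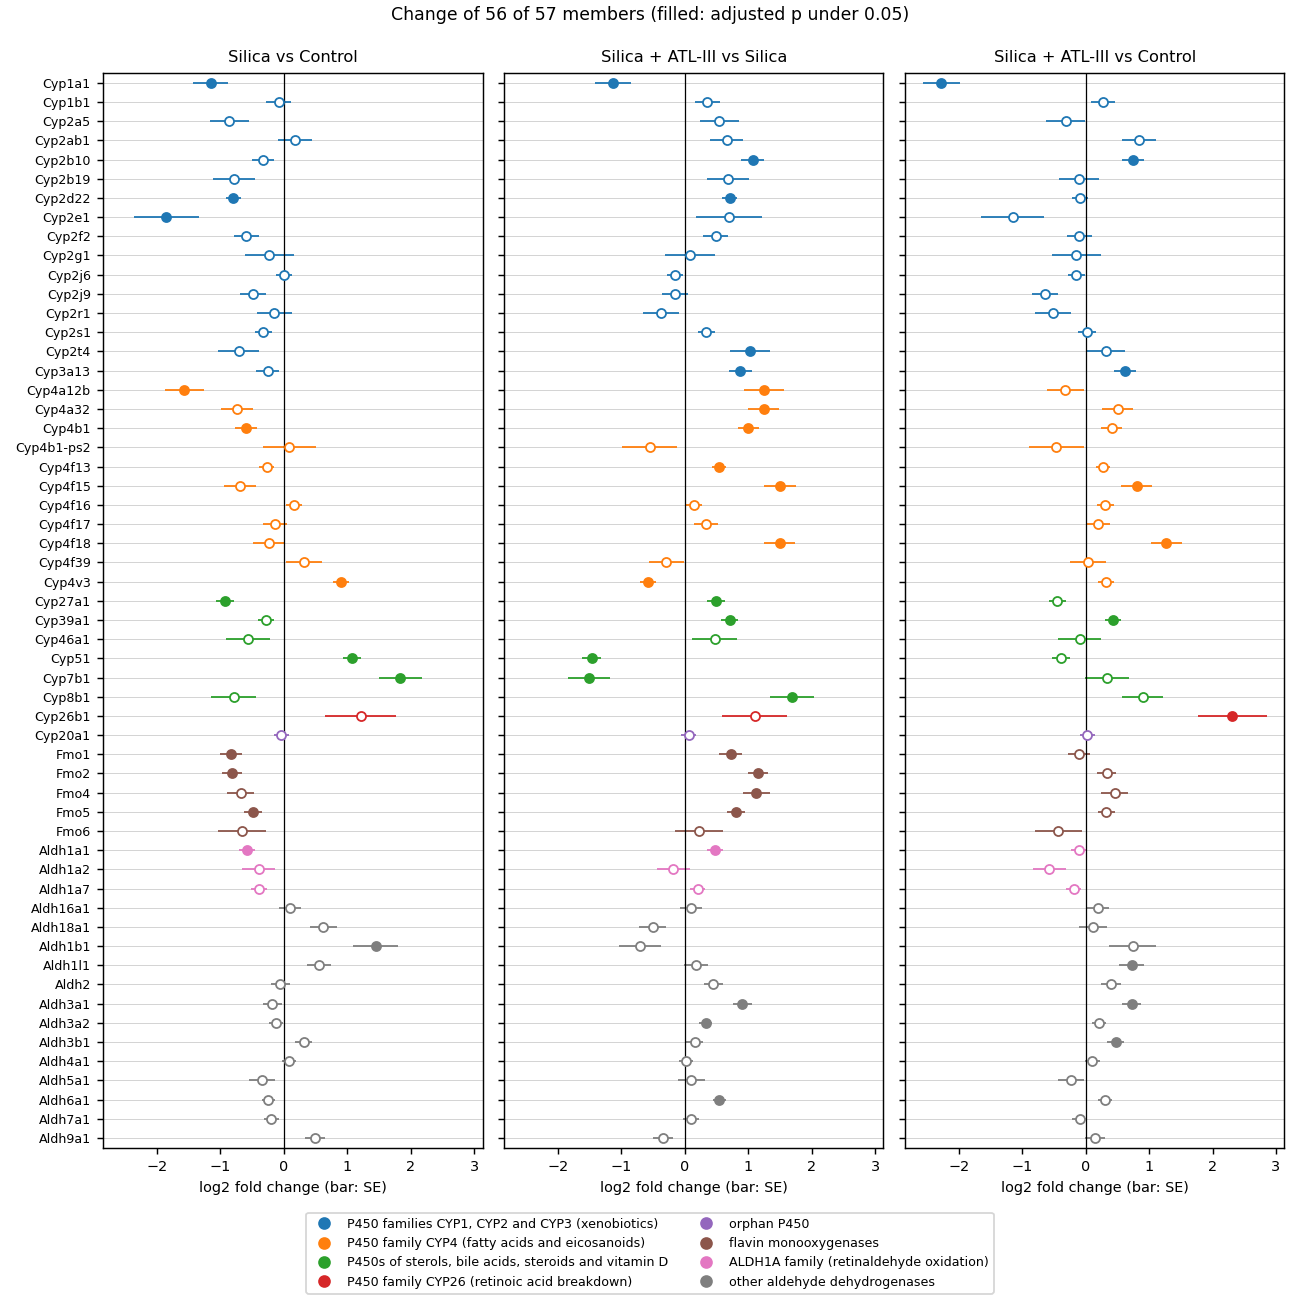
Log2 fold change (horizontal axis, bar: SE) of 56 of the 57 members in the 3 comparisons, coloured by role, with filled points for members called at an adjusted p under 0.05. Cyp51 and Cyp7b1 lie above 0 in Silica against Control (1.08 and 1.84) and below 0 in Silica + ATL-III against Silica (-1.47 and -1.51), while Cyp1a1 lies below 0 in all 3 comparisons.

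The flavin monooxygenases, which oxygenate nitrogen and sulfur compounds, are described here for 5 genes. Of these 3 fell in Silica and 4 rose in Silica + ATL-III against Silica, with median log2 changes of -0.67 and 0.80. Of all genes tested 5.81% fell and 9.95% rose in these comparisons, and in a list of 5 genes a single call weighs heavily. Fmo2, the main lung form, measured 222, 231 and 262 FPKM in Control, 107, 145 and 122 FPKM in Silica, and 288, 315 and 212 FPKM in Silica + ATL-III. Every Silica library was below every other library, and the other groups overlapped. The log2 change was -0.82 ± 0.16 (adjusted p = 0.007) in Silica against Control and 1.15 ± 0.16 (adjusted p = 0.00052) in Silica + ATL-III against Silica.

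Fmo1, which acts on many drugs, measured 55.3, 58.4 and 67.8 FPKM in Control, 21.4, 40.4 and 32.6 FPKM in Silica, and 44.8, 54.6 and 53.1 FPKM in Silica + ATL-III. Silica lay below the other groups without overlap, with log2 changes of -0.83 ± 0.18 (adjusted p = 0.012, and 0.052 without Control 3) and 0.73 ± 0.18 (adjusted p = 0.014, and 0.055 without Silica + ATL-III 2).

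Fmo5, a form that also carries out Baeyer-Villiger oxidation, measured 5.02, 5.22 and 5.88 FPKM in Control, 2.91, 3.79 and 3.96 FPKM in Silica, and 5.32, 7.10 and 5.85 FPKM in Silica + ATL-III. It fell by 0.48 ± 0.14 in Silica (adjusted p = 0.041, and up to 0.15 without Control 1, 2 or 3 or Silica 1 or 3) and rose by 0.80 ± 0.14 in Silica + ATL-III against Silica (adjusted p = 0.0022). Fmo4 measured 3.60, 3.92 and 3.51 FPKM in Control, 1.46, 2.89 and 2.05 FPKM in Silica, and 5.50, 3.58 and 4.62 FPKM in Silica + ATL-III. The change in Silica was -0.67 ± 0.21 and missed the threshold (adjusted p = 0.054, and 0.01 to 0.19 with 1 library left out). Silica + ATL-III was higher than Silica by 1.13 ± 0.21 (adjusted p = 0.0035). Fmo6, between 0.56 and 2.40 FPKM, was called in no comparison.

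P450s of families 1 to 3 mainly handle foreign compounds. Of these 16 members 3 fell in Silica (18.8%, beside 5.81% of all genes) and 0 rose (beside 8.36%). In Silica + ATL-III against Silica 4 rose (25.0%, beside 9.95%) and 1 fell (6.25%, beside 8.58%). Cyp1a1, the classic target of AHR, measured 16.2, 29.6 and 24.6 FPKM in Control, 8.87, 7.45 and 12.8 FPKM in Silica, and 4.85, 5.70 and 2.56 FPKM in Silica + ATL-III. The groups did not overlap and stood in that order from high to low. Its log2 change was -1.15 ± 0.28 in Silica against Control (adjusted p = 0.019), -1.13 ± 0.29 in Silica + ATL-III against Silica (adjusted p = 0.018) and -2.28 ± 0.29 in Silica + ATL-III against Control (adjusted p = 0.00027), a 4.85-fold lower level. The last kept its call whichever library was left out. The first was lost without Control 2 (-0.97, adjusted p = 0.072), Control 3 (adjusted p = 0.061) or Silica 1 (adjusted p = 0.082), and the second without Silica 3 (-0.89, adjusted p = 0.085).

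Cyp1b1, the other AHR target of this family here, lay between 3.07 and 5.58 FPKM in all 9 libraries and was not called, with log2 changes of -0.08 ± 0.19, 0.36 ± 0.19 and 0.28 ± 0.19. Ahr itself was not called either: it measured 11.3 to 13.6 FPKM in Control, 13.0 to 16.2 FPKM in Silica and 9.46 to 14.4 FPKM in Silica + ATL-III, and the groups overlapped. Arnt, the partner that AHR needs on DNA, was lower in Silica than in Control by 0.37 ± 0.11 on the log2 scale (adjusted p = 0.042) and higher in Silica + ATL-III than in Silica by 0.35 ± 0.11 (adjusted p = 0.039). It measured 10.5, 11.4 and 11.3 FPKM in Control, 6.59, 8.74 and 8.40 FPKM in Silica, and 10.4, 10.4 and 8.98 FPKM in Silica + ATL-III. Beside Cyp1a1, which is known to be expressed in lung endothelium, the 10 endothelial markers summed to 395 to 413 FPKM in Control, 245 to 318 FPKM in Silica and 349.6 to 441 FPKM in Silica + ATL-III. Of these, 0 rose and 3 fell in Silica, and 6 rose and 1 fell in Silica + ATL-III against Silica. Of the same markers limma called 4 higher and 1 lower in the latter comparison. Their part in the change of Cyp1a1 was not tested.

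Cyp2f2 measured 776, 660.5 and 741 FPKM in Control, 318, 476 and 542 FPKM in Silica, and 479, 773 and 587 FPKM in Silica + ATL-III. Silica lay below Control without overlap, but the log2 change of -0.59 ± 0.20 missed the threshold (adjusted p = 0.065). Silica + ATL-III overlapped both groups and was not called against either (0.49 ± 0.20 with adjusted p = 0.11, and -0.10 ± 0.20). The lowest value came from Silica 1. In that library the club cell gene Scgb1a1 was also lowest, at 34593 FPKM against at least 71946 FPKM in every other library. The club cell markers did not move together: in Silica 1 Cldn10 was also lowest (7.14 FPKM) but Scgb3a1 was highest (1532 FPKM). Without Silica 1 the log2 change of Cyp2f2 was -0.42 (adjusted p = 0.22). The 9 club cell markers summed to 75909 to 82839 FPKM in Control, 38598 to 83675 FPKM in Silica and 84801 to 97869 FPKM in Silica + ATL-III. Scgb1a1 made up most of each sum, so the sums largely repeat that gene. Of the 9 markers 1 rose and 0 fell in Silica, and 0 rose and 1 fell in Silica + ATL-III against Silica. The part of club cells in the level of Cyp2f2 was not tested.

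Cyp2b10, a mouse P450 inducible through the receptor CAR, measured 217, 177 and 214 FPKM in Control, 149, 132 and 164 FPKM in Silica, and 257, 406 and 259.6 FPKM in Silica + ATL-III. The groups did not overlap, and Silica + ATL-III was highest. Its change in Silica was -0.33 ± 0.18 and was not called. It rose by 1.07 ± 0.18 in Silica + ATL-III against Silica (adjusted p = 0.0018) and by 0.74 ± 0.18 against Control (adjusted p = 0.014). The latter was lost without Control 2 (0.63, adjusted p = 0.076) or Silica + ATL-III 2, and with TPM scaling (adjusted p = 0.091) or limma (adjusted p = 0.066). Cyp3a13, a form of the family that oxidises many drugs, rose by 0.88 ± 0.18 in Silica + ATL-III against Silica (adjusted p = 0.0054), from 3.17, 3.50 and 3.73 FPKM to 4.71, 7.44 and 6.62 FPKM. Against Control, at 4.55, 3.82 and 5.09 FPKM, it was higher by 0.62 ± 0.18 with overlapping libraries (adjusted p = 0.033, and up to 0.15 without Control 1, 2 or 3, Silica 3 or Silica + ATL-III 2 or 3). It also lost that call with library totals only, upper-quartile factors, TPM scaling, limma and only the 6 libraries compared (adjusted p up to 0.21).

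Cyp2d22, a mouse member of the CYP2D drug-oxidising subfamily, measured 14.4, 17.3 and 15.3 FPKM in Control, 6.73, 9.71 and 8.54 FPKM in Silica, and 14.0, 12.6 and 13.3 FPKM in Silica + ATL-III. It fell by 0.80 ± 0.12 in Silica (adjusted p = 0.002) and rose by 0.71 ± 0.12 in Silica + ATL-III against Silica (adjusted p = 0.0021). Both calls held whichever library was left out. Cyp2t4 measured 0.63, 0.76 and 0.44 FPKM in Silica and 1.34, 1.27 and 1.06 FPKM in Silica + ATL-III, a rise of 1.03 ± 0.32 (adjusted p = 0.041, and up to 0.14 without Control 1 or 2, Silica 1 or 3 or Silica + ATL-III 1 or 2). The call was also lost with TPM scaling, no FPKM filter and only the 6 libraries compared (adjusted p up to 0.072).

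Cyp2e1, the ethanol-inducible P450, measured 7.03, 4.48 and 23.5 FPKM in Control, 3.41, 2.84 and 2.66 FPKM in Silica, and 3.41, 7.53 and 3.34 FPKM in Silica + ATL-III. Control 3 alone stood far above the other 8 libraries. The log2 change in Silica was -1.85 ± 0.52 (adjusted p = 0.034), and without Control 3 it was -0.85 and lost its call (adjusted p = 0.16), as it also did without Silica 1, 2 or 3 (adjusted p of 0.1, 0.059 and 0.11) and with limma at each pseudocount (adjusted p up to 0.088). The 10 adipocyte markers summed to 192 FPKM in Control 3 and to 76.1 and 50.9 FPKM in Control 1 and 2, against 39.8 to 52.1 FPKM in Silica and 40.2 to 58.1 FPKM in Silica + ATL-III. Of the 8 adipocyte markers that could be tested, 5 were lower in Silica than in Control by edgeR and by DESeq2, and 2 by limma. Cyp2e1 is also expressed in fat, and the part of adipose tissue in its change was not tested.

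Cyp2a5, which oxidises coumarin and nicotine, measured 87.4, 68.9 and 81.6 FPKM in Control, 34.9, 23.9 and 61.6 FPKM in Silica, and 39.2, 80.4 and 53.8 FPKM in Silica + ATL-III. Its log2 changes of -0.86 ± 0.31 (adjusted p = 0.078) and 0.54 ± 0.31 were not called, and its reads may be shared with Cyp2a4. Cyp2s1, an epithelial P450, went from 23.1, 23.0 and 24.6 FPKM in Control to 13.6, 20.5 and 18.1 FPKM in Silica without a call (-0.32 ± 0.14). The remaining members of these families, Cyp2ab1, Cyp2b19, Cyp2g1, Cyp2j6, Cyp2j9 and Cyp2r1, were called in no comparison.

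**Figure D3:**
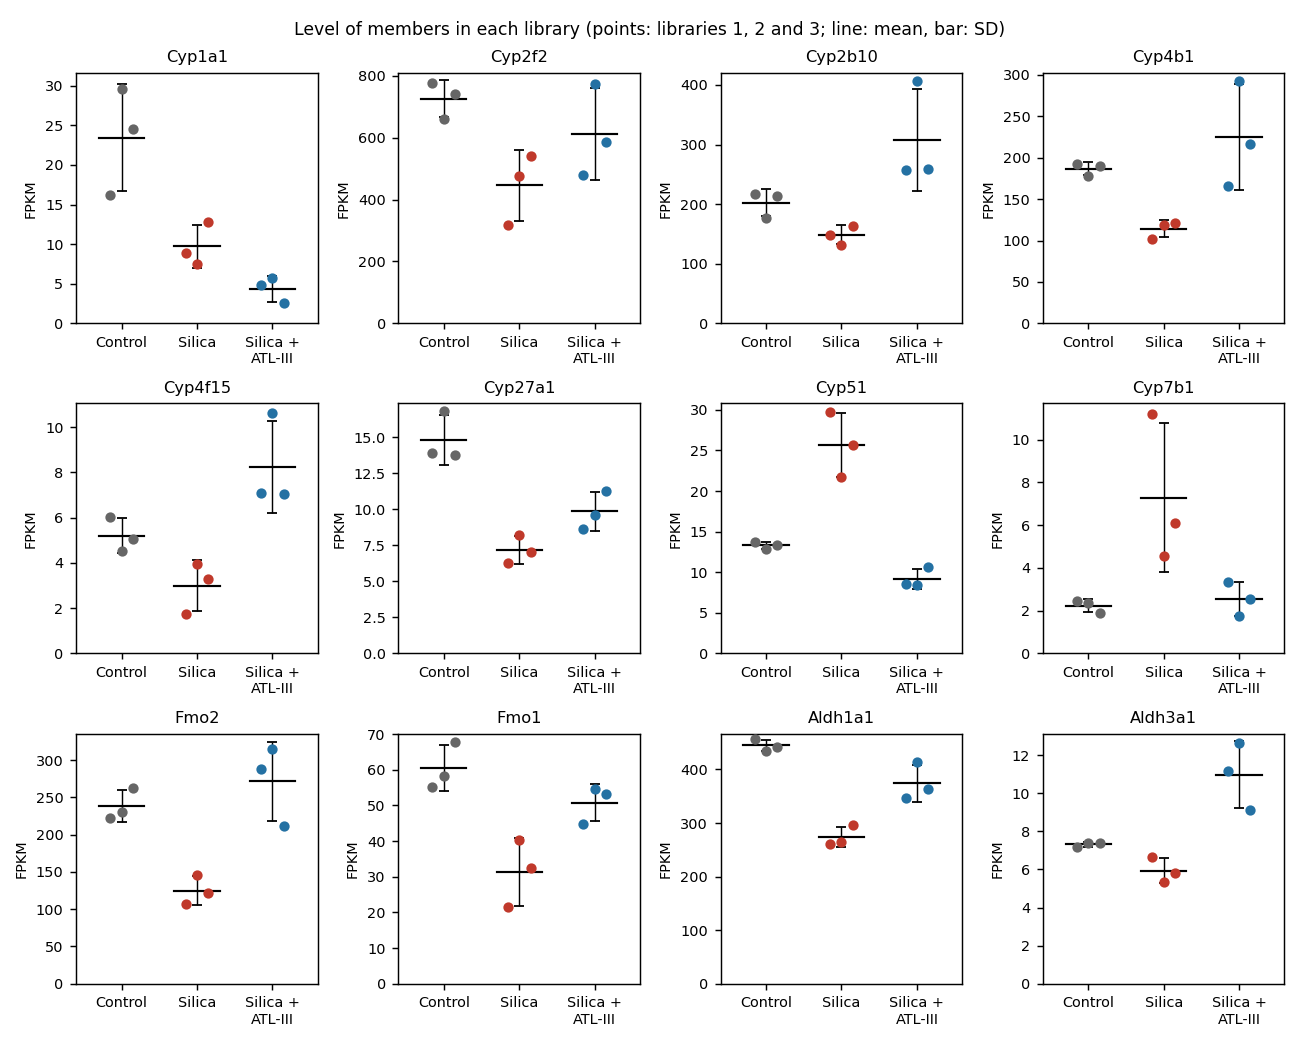
Level in FPKM (vertical axis, from 0) of 12 members in the 3 libraries of each group, with the mean (line) and SD (bar). Cyp51 and Cyp7b1 are highest in Silica, Cyp1a1 is lowest in Silica + ATL-III at 2.56 to 5.70 FPKM, and Fmo1, Fmo2, Cyp4b1, Cyp27a1 and Aldh1a1 are lowest in Silica.

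The enzymes of the 11 CYP4 genes act mainly on the end carbon of fatty acids and on eicosanoids. In Silica 2 of these genes fell (18.2%, beside 5.81% of all genes) and 1 rose (9.09%, beside 8.36%). In Silica + ATL-III against Silica 6 rose (54.5%, beside 9.95%) and 1 fell (9.09%, beside 8.58%). Against Control 2 rose (18.2%, beside 8.60%) and 0 fell (beside 5.42%). Cyp4b1, an airway P450 that activates furans, measured 192, 178 and 190.3 FPKM in Control, 102, 119 and 121 FPKM in Silica, and 166, 293 and 217 FPKM in Silica + ATL-III. Silica lay below the other groups without overlap, and the other groups overlapped. Its log2 change was -0.59 ± 0.17 in Silica (adjusted p = 0.037, and up to 0.13 without Control 1, 2 or 3 or Silica 1 or 3) and 1.01 ± 0.17 in Silica + ATL-III against Silica (adjusted p = 0.0019).

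Cyp4a12b and Cyp4a32, fatty acid hydroxylases best known in kidney and liver, stood at low levels and share much sequence with other genes. Cyp4a12b measured 2.21, 2.50 and 2.65 FPKM in Control, 0.55, 0.92 and 0.82 FPKM in Silica, and 1.44, 2.72 and 1.19 FPKM in Silica + ATL-III. It fell by 1.56 ± 0.31 in Silica (adjusted p = 0.0083), the only called decrease of over 1 on the log2 scale besides those of Cyp2e1 and Cyp1a1 in this comparison. It rose by 1.25 ± 0.31 in Silica + ATL-III against Silica (adjusted p = 0.017, 0.067 and 0.083 without Silica 1 and Silica + ATL-III 2, and 0.053 with limma at a pseudocount of 1). Cyp4a32 went from 1.46, 1.55 and 1.32 FPKM in Silica to 4.32, 3.38 and 2.40 FPKM in Silica + ATL-III, a rise of 1.24 ± 0.25 (adjusted p = 0.0048).

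The Cyp4f genes include enzymes that break down leukotriene B4 and other lipid mediators. Cyp4f18, known as the leukotriene B4 hydroxylase of mouse neutrophils, measured 6.07, 12.8 and 6.22 FPKM in Control, 6.13, 7.12 and 6.42 FPKM in Silica, and 15, 18.3 and 21.3 FPKM in Silica + ATL-III. Every Silica + ATL-III library was above every other library, and Control 2 was the highest of the rest. It rose by 1.50 ± 0.25 against Silica (adjusted p = 0.0016) and by 1.27 ± 0.24 against Control (adjusted p = 0.0042). The 10 neutrophil markers summed to 29996, 29764 and 45219 FPKM in Silica + ATL-III, to 1931, 4499 and 731 FPKM in Silica, and to 584, 3875 and 555 FPKM in Control. Within Control, library 2 was the highest in both measures. Without Control 2 the change in Silica against Control was 0.19 in place of -0.23, called neither way. The part of neutrophils in the rise of Cyp4f18 was not tested.

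**Figure D4:**
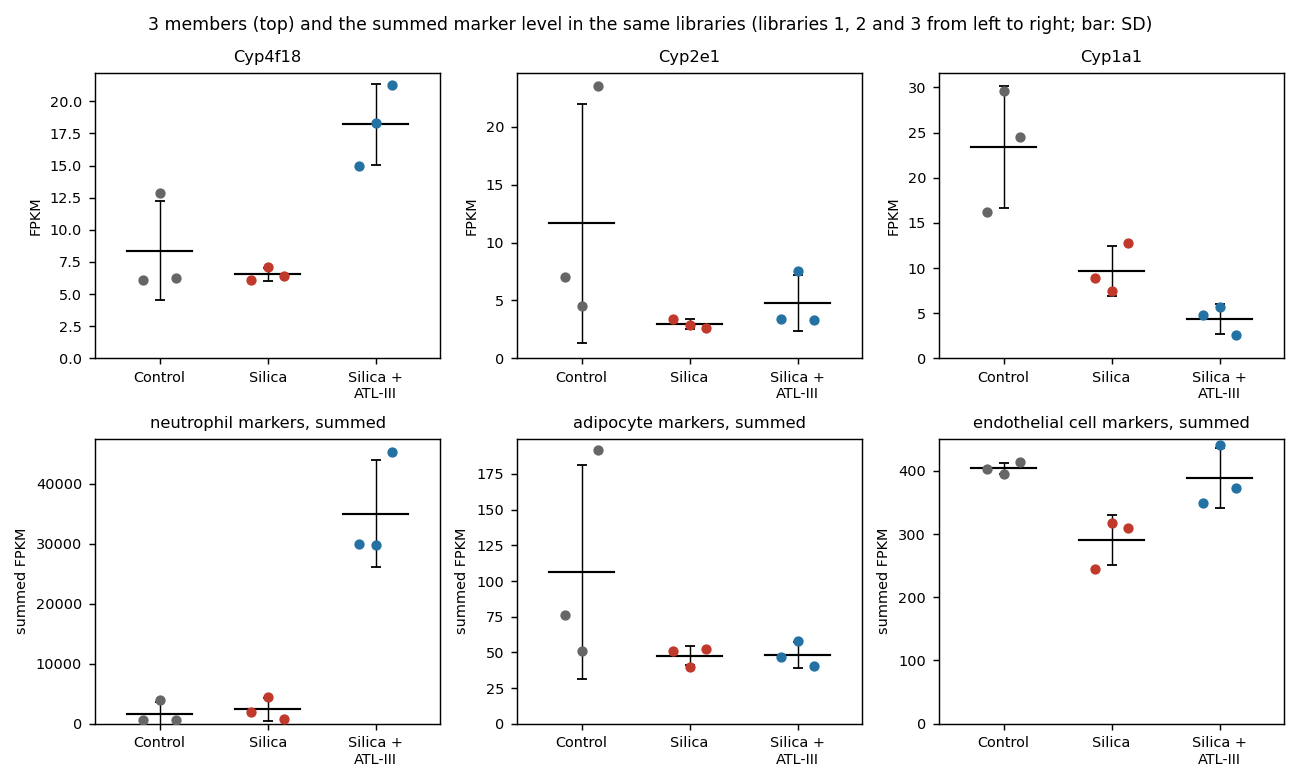
Level in FPKM of Cyp4f18, Cyp2e1 and Cyp1a1 (upper panels) and summed FPKM of the neutrophil, adipocyte and endothelial markers (lower panels) in the same 9 libraries, with the mean (line) and SD (bar). Control 2 is the highest Control library for Cyp4f18 (12.8 FPKM) and for neutrophil markers (3875 FPKM), and Control 3 for Cyp2e1 (23.5 FPKM) and adipocyte markers (192 FPKM).

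Cyp4f15 measured 6.03, 4.53 and 5.06 FPKM in Control, 1.74, 3.94 and 3.28 FPKM in Silica, and 7.08, 10.6 and 7.06 FPKM in Silica + ATL-III. No library of one group reached the range of another. It rose by 1.50 ± 0.25 against Silica (adjusted p = 0.0017), and the difference from Control of 0.81 ± 0.24 (adjusted p = 0.044) was lost without Control 1, 2 or 3, Silica 3 or Silica + ATL-III 1 or 2 (adjusted p up to 0.19). It was also lost with library totals only, upper-quartile factors, TPM scaling, limma and the FPKM filter of 1 (adjusted p up to 0.16). Cyp4f13 rose from 4.48, 5.97 and 5.51 FPKM in Silica to 7.52, 8.32 and 6.91 FPKM in Silica + ATL-III, by 0.54 ± 0.12 (adjusted p = 0.0072). Cyp4v3, an omega-hydroxylase of medium-chain fatty acids found in macrophages, took the other course. It measured 18.9, 17.4 and 18.2 FPKM in Control, 34.3, 26.2 and 33.0 FPKM in Silica, and 21.8, 20.8 and 19.2 FPKM in Silica + ATL-III. It rose by 0.91 ± 0.13 in Silica (adjusted p = 0.0011) and fell by 0.58 ± 0.12 in Silica + ATL-III against Silica (adjusted p = 0.0073). The 9 macrophage markers summed to 7211 to 9293 FPKM in Control, 14280.2 to 15752 FPKM in Silica and 9214 to 12673 FPKM in Silica + ATL-III. Lyz2 made up most of these sums, at 7104 to 9170, 14077 to 15485 and 9035 to 12431 FPKM. Of the 9 markers edgeR called 7 higher and 0 lower in Silica, and 0 higher and 2 lower in Silica + ATL-III against Silica. The part of macrophages in the level of Cyp4v3 was not tested. Cyp4f16, Cyp4f17, Cyp4f39 and Cyp4b1-ps2 were called in no comparison.

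The 6 P450s of sterols, bile acids and steroids moved in both directions. In Silica 2 rose (33.3%, beside 8.36% of all genes) and 1 fell (16.7%, beside 5.81%). In Silica + ATL-III against Silica 3 rose (50.0%, beside 9.95%) and 2 fell (33.3%, beside 8.58%). In a list of 6 a single call is 16.7%. Against Control edgeR called 1 higher and 0 lower, DESeq2 1 and 1, and limma 0 and 2. Library totals only, upper-quartile factors and TPM scaling each gave 0 higher and 2 lower there. Cyp51, the lanosterol demethylase of cholesterol synthesis, measured 13.7, 12.9 and 13.4 FPKM in Control, 29.7, 21.8 and 25.6 FPKM in Silica, and 8.50, 8.44 and 10.6 FPKM in Silica + ATL-III. All 3 groups were separate. It rose by 1.08 ± 0.14 in Silica (adjusted p = 0.00091) and fell by 1.47 ± 0.15 in Silica + ATL-III against Silica (adjusted p = 9e-05), and both calls held whichever library was left out. Against Control it was -0.39 ± 0.15, which missed the threshold (adjusted p = 0.099).

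Cyp7b1, the oxysterol 7-alpha-hydroxylase, which also clears 25-hydroxycholesterol, measured 2.47, 2.36 and 1.88 FPKM in Control, 11.2, 4.56 and 6.10 FPKM in Silica, and 3.34, 1.74 and 2.57 FPKM in Silica + ATL-III. All Silica libraries were above all others. It rose by 1.84 ± 0.33 in Silica (adjusted p = 0.0054), a 3.58-fold higher level and the largest increase among the members in this comparison, and fell by 1.51 ± 0.33 in Silica + ATL-III against Silica (adjusted p = 0.0079). The 10 alveolar type 2 cell markers, whose calls are given above, summed to 23000 to 31587 FPKM in Control, 29498 to 35104 FPKM in Silica and 23544 to 31013 FPKM in Silica + ATL-III. Sftpc made up most of these sums, at 19802 to 27488, 24818 to 30186 and 20530.5 to 27147 FPKM. The part of these markers in the levels of Cyp51 and Cyp7b1 was not tested. Cyp27a1, the mitochondrial sterol 27-hydroxylase, measured 13.9, 16.8 and 13.8 FPKM in Control, 6.27, 8.21 and 7.04 FPKM in Silica, and 8.65, 9.62 and 11.3 FPKM in Silica + ATL-III. The groups did not overlap, and Silica + ATL-III lay between the others. It fell by 0.93 ± 0.14 in Silica (adjusted p = 0.0019) and rose by 0.49 ± 0.14 in Silica + ATL-III against Silica (adjusted p = 0.031, and up to 0.1 without Silica 1 or 3 or Silica + ATL-III 2 or 3). The rise lost its call with TPM scaling, limma and only the 6 libraries compared (adjusted p up to 0.081). Against Control the difference was -0.44 ± 0.14 (adjusted p = 0.052).

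Cyp39a1, which hydroxylates 24-hydroxycholesterol, measured 18.7, 14.2 and 17.0 FPKM in Control, 10.8, 13.7 and 13.6 FPKM in Silica, and 20.6, 22.2 and 18.1 FPKM in Silica + ATL-III. It rose by 0.71 ± 0.13 against Silica (adjusted p = 0.0028). The difference of 0.43 ± 0.13 from Control (adjusted p = 0.041) had overlapping libraries and was lost without Control 2 or 3, Silica 3 or Silica + ATL-III 1 or 2 (adjusted p up to 0.2). The same call was lost with library totals only, upper-quartile factors, TPM scaling, limma and the FPKM filter of 1 (adjusted p up to 0.55). Cyp8b1, the sterol 12-alpha-hydroxylase of bile acid synthesis, went from 0.62, 0.55 and 0.58 FPKM in Silica to 2.01, 2.48 and 1.09 FPKM in Silica + ATL-III, a rise of 1.69 ± 0.34 (adjusted p = 0.0052) at a low level. Cyp46a1 was called in no comparison, nor was Cyp20a1, a P450 without a known substrate, which lay between 8.98 and 11.3 FPKM in all libraries.

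Transcripts were measured of the ALDH1A family, which includes enzymes of retinoic acid synthesis, and of CYP26, which breaks retinoic acid down. The ALDH1A genes were grouped by name, and enzyme activity was not measured. Aldh1a1 measured 457, 435 and 442 FPKM in Control, 261, 265 and 296 FPKM in Silica, and 346, 413 and 363 FPKM in Silica + ATL-III. The groups did not overlap, and Silica + ATL-III lay between the others. It fell by 0.58 ± 0.13 in Silica (adjusted p = 0.013, and 0.057 without Control 1 or Control 3) and rose by 0.47 ± 0.13 in Silica + ATL-III against Silica (adjusted p = 0.021, lost without Silica + ATL-III 2 at 0.091, with TPM scaling at 0.063 and with only the 6 libraries compared at 0.081). Its neighbour Aldh1a7 measured 121, 102 and 110.0 FPKM in Control, 69.3, 77.2 and 87.0 FPKM in Silica, and 76.5, 96.4 and 91.2 FPKM in Silica + ATL-III. The change of -0.39 ± 0.12 in Silica missed the threshold (adjusted p = 0.052, and 0.045 to 0.17 with 1 library left out). Of the 3 ALDH1A genes edgeR called 1 lower in Silica, beside 5.81% of all genes. DESeq2 and limma (pseudocount of 0.5) each called 2, beside 7.95% and 7.92% of all genes. Library totals only, upper-quartile factors and TPM scaling also gave 2, beside 11.1%, 6.52% and 19.1%. In a list of 3 a single call is 33.3%, so these counts say little about the list.

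Aldh1a2, the retinaldehyde dehydrogenase known from mesothelium and embryonic mesenchyme, measured 7.83, 9.41 and 14.2 FPKM in Control, 5.86, 8.70 and 7.50 FPKM in Silica, and 8.73, 6.28 and 4.15 FPKM in Silica + ATL-III. It overlapped between all groups and was not called. The 7 mesothelial markers summed to 137 FPKM in Control 3 and to 97.7 and 99.3 FPKM in the other Control libraries, to 51.1 to 80.5 FPKM in Silica, and to 140.2, 91.0 and 56.5 FPKM in Silica + ATL-III. Control 3 was thus the highest Control library in both. Their part in the level of Aldh1a2 was not tested.

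Cyp26b1, which breaks down retinoic acid, measured 0.58, 0.29 and 1.08 FPKM in Control, 1.16, 1.76 and 1.27 FPKM in Silica, and 0.75, 3.77 and 4.28 FPKM in Silica + ATL-III. Silica + ATL-III 1 lay within the Control range, while the other libraries of that group were the highest of all. The increase over Control was 2.31 ± 0.55 (adjusted p = 0.014), lost without Control 1 (adjusted p = 0.054) or Control 2 (adjusted p = 0.055) and with limma at each pseudocount (adjusted p = 0.075). Among 12 other retinoid genes tested, 0 were called in Silica against Control by edgeR (6 at an unadjusted p under 0.05, 0 by DESeq2 and 1 by limma). In Silica + ATL-III against Silica 3 rose and 4 fell, beside 9.95% and 8.58% of all genes. The receptor gene Rara rose by 1.36 ± 0.15 (adjusted p = 0.00014), from 3.74, 5.45 and 4.38 FPKM to 10.3, 12 and 11.7 FPKM. The alcohol dehydrogenase Adh1 fell by 0.80 ± 0.11 (adjusted p = 0.00064), from 22.4, 19.0 and 20.5 FPKM to 11, 11.5 and 12.6 FPKM. Against Control 1 retinoid gene rose and 2 fell, beside 8.60% and 5.42% of all genes. Rara was at 1.01 ± 0.14 (adjusted p = 0.00056) and Adh1 at -0.86 ± 0.11 (adjusted p = 0.00035) there.

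Among the 13 other aldehyde dehydrogenases 1 rose and 0 fell in Silica, and 3 rose and 0 fell both in Silica + ATL-III against Silica and against Control. The first share, 7.69%, is near the 8.36% of all genes, and the others are 23.1% beside 9.95% and 8.60%. Aldh3a1, which oxidises medium-chain and aromatic aldehydes, measured 7.18, 7.41 and 7.40 FPKM in Control, 6.63, 5.33 and 5.82 FPKM in Silica, and 11.2, 12.7 and 9.13 FPKM in Silica + ATL-III. The groups did not overlap. It rose by 0.91 ± 0.15 against Silica (adjusted p = 0.0016) and by 0.73 ± 0.15 against Control (adjusted p = 0.0062). Both calls held whichever library was left out, but the second was lost with TPM scaling (adjusted p = 0.07). Aldh3a2, the fatty aldehyde dehydrogenase, rose by only 0.33 ± 0.11 against Silica (adjusted p = 0.045), from 14.4, 16.5 and 15.7 FPKM to 19.8, 21.2 and 16.7 FPKM. That call was lost when any library other than Silica + ATL-III 3 was left out (adjusted p up to 0.17), and with library totals only, upper-quartile factors, TPM scaling, limma, no FPKM filter and only the 6 libraries compared (adjusted p up to 0.22). Aldh6a1, of valine and thymine breakdown, rose from 18.4, 21.1 and 19.3 FPKM to 29.9, 29.5 and 25.2 FPKM, by 0.55 ± 0.11 (adjusted p = 0.004).

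Aldh1b1, a mitochondrial acetaldehyde dehydrogenase, measured 0.24, 0.24 and 0.40 FPKM in Control and 0.70, 0.83 and 0.71 FPKM in Silica, without overlap. It reached 0.5 FPKM in only 4 libraries, all 3 of Silica and Silica + ATL-III 1, so it became a member through the group where it is high. The difference of 1.45 ± 0.35 (adjusted p = 0.021) is therefore given as a description, although it is among the 4 members counted as higher in Silica. It was lost without Control 1 or 2 or Silica 1 or 3 (adjusted p up to 0.078) and with limma at a pseudocount of 0.1 (adjusted p = 0.051). Aldh1l1, the folate enzyme 10-formyltetrahydrofolate dehydrogenase, measured 1.51, 1.38 and 1.94 FPKM in Control and 2.61, 2.42 and 2.23 FPKM in Silica + ATL-III. It was higher than Control by 0.73 ± 0.20 (adjusted p = 0.027, and up to 0.12 without Control 1 or 2 or Silica + ATL-III 1 or 2), a call also lost with library totals only, TPM scaling and limma (adjusted p up to 0.14). Aldh3b1 was higher than Control by 0.48 ± 0.13 (adjusted p = 0.033), at 33.3, 28.8 and 32.9 against 32.8, 43.7 and 43.0 FPKM, with overlap, and was lost without Control 1, 2 or 3 or Silica + ATL-III 2 or 3 (adjusted p up to 0.15). Library totals only, upper-quartile factors, TPM scaling and limma also ended that call (adjusted p up to 0.4). Aldh2, the mitochondrial enzyme that clears acetaldehyde, measured 54.4, 52.9 and 59.6 FPKM in Control, 58.5, 43.1 and 45.7 FPKM in Silica, and 61.0, 78.7 and 59.7 FPKM in Silica + ATL-III. Its log2 change against Silica was 0.45 ± 0.15 and missed the threshold (adjusted p = 0.059). Aldh18a1, of proline synthesis, lay between 0.89 and 1.99 FPKM and was not called, and neither were Aldh4a1, Aldh5a1, Aldh7a1, Aldh9a1 and Aldh16a1.

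Genes that work with these enzymes were counted from lists of redox partners, receptors and conjugating enzymes. Of 8 electron donor genes tested, edgeR called 0 in Silica against Control (1 at an unadjusted p under 0.05, 1 by DESeq2 and 0 by limma), and in Silica + ATL-III against Silica 1 rose and 1 fell. Por, the reductase that feeds electrons to microsomal P450s, measured 29.9, 24.5 and 28.9 FPKM in Control, 23.3, 20.7 and 19.1 FPKM in Silica, and 53.5, 58.0 and 33.8 FPKM in Silica + ATL-III. Silica + ATL-III lay above the other groups without overlap. The log2 change was 1.22 ± 0.18 against Silica (adjusted p = 0.00074) and 0.94 ± 0.18 against Control (adjusted p = 0.0035). Cyb5b, the outer mitochondrial cytochrome b5, fell by 0.40 ± 0.10 against Silica (adjusted p = 0.018).

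Of 12 receptor genes tested, 1 rose and 1 fell in Silica, 3 rose and 0 fell in Silica + ATL-III against Silica, and edgeR called 0 against Control (3 at an unadjusted p under 0.05, 0 by DESeq2 and 0 by limma). In the first 2 comparisons limma called 0 higher and 1 lower, and 1 higher and 0 lower. DESeq2 called 1 and 1, and 3 and 1. Pparg, the lipid-sensing receptor, rose by 0.64 ± 0.19 in Silica (adjusted p = 0.044, not called by limma), from 5.01, 3.88 and 5.41 FPKM to 5.62, 6.83 and 8.13 FPKM. Nr1h2, the oxysterol receptor LXR-beta, rose by 0.42 ± 0.10 in Silica + ATL-III against Silica (adjusted p = 0.011). The xenobiotic receptor genes Nr1i2 (PXR) and Nr1i3 (CAR) were at or under 1.07 and 0.26 FPKM in every library.

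Of 10 genes of hydrolysis and conjugation tested, edgeR called 0 in Silica against Control (2 at an unadjusted p under 0.05, 1 by DESeq2 and 0 by limma), 4 rose in Silica + ATL-III against Silica and 3 rose against Control, with none lower in either by edgeR. Against Control 1 was lower at an unadjusted p under 0.05, and limma called 1 lower and DESeq2 0. Ugt1a7c, a glucuronosyltransferase, measured 0.65, 0.71 and 0.92 FPKM in Control, 0.59, 0.48 and 0.76 FPKM in Silica, and 2.40, 2.68 and 2.20 FPKM in Silica + ATL-III. It rose by 2.01 ± 0.22 against Silica (adjusted p = 0.00017) and by 1.82 ± 0.22 against Control (adjusted p = 0.00019). Genes of the Ugt1a cluster share exons, so reads may be split among them. Sult1a1, a phenol sulfotransferase, measured 88.5, 67.0 and 90.5 FPKM in Control, 63.1, 64.9 and 62.8 FPKM in Silica, and 117, 134 and 122 FPKM in Silica + ATL-III, a log2 change of 0.99 ± 0.12 against Silica (adjusted p = 0.00031).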

How the data were processed

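Poly(A) RNA of lung tissue was sequenced in 9 libraries, 3 per group. The tools HTSeq 0.6.1, HISAT2 2.0.1 and cutadapt 1.9.1 were used with build mm10, per the submitters' processing notes, which give no roles or order. Neither the annotation release nor the strand setting is given in the sources used here, and reads from antisense partners cannot be told apart. The authors deposited raw counts per gene beside FPKM values, per the file headers. FPKM recomputed from counts, exonic length and column totals matched within 0.006 for 100% of values, so FPKM carry no scaling beyond the total count. Positions in the table did not match GRCm38, so coordinates come from GENCODE M21 or RefSeq.

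Genes with at least 0.5 FPKM in at least 3 libraries (18103) entered 1 edgeR quasi-likelihood fit (edgeR 4.0.16, R 4.3.3) of 3 group means on counts with TMM factors of 0.938 to 1.070 and 6 residual degrees of freedom. The p-values were adjusted by Benjamini-Hochberg over all of them, and the SE is the log2 fold change over the square root of F. Rows without a symbol (1438) stayed in the fit. Depth was 16047175 to 17792481 counts, and the number of libraries limits the precision. The fit was first tested on simulated data. It called 13.4% to 26.9% of simulated 1.5-fold changes, 46.3% to 71.6% of 2-fold changes and 83.3% to 90.9% of 4-fold changes. A member that was not called may therefore still have changed.

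Alternatives were DESeq2 1.42.0, limma 3.58.1 on log2(FPKM + 0.1, 0.5 or 1), other size factors, other FPKM filters, only the 6 libraries compared, a replicate block, and each library left out. Members and lists were chosen with earlier results of these data known, so no p was adjusted over the members alone. The named members were those of a written list, every other member called with an absolute log2 change of at least 1, the 10 members with the smallest p per comparison, and the 10 with the highest mean FPKM. Partner genes were those with the smallest p per list and direction, and Sult1a1 was described outside that rule. Cyp4f13, Aldh6a1, Ahr, Arnt, Nr1h2, Nr1i2, Nr1i3 and the members named only as not called were added after their values were seen. Of the 57 members 1 is in the counts over all members but is not reported singly here.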

Additional observations from a re-analysis of the deposited data

How the results depend on the processing

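Of 52 calls of members, 36 held under all 12 settings other than leaving out a library, and 0 changed sign under any. Members higher in Silica than in Control, and higher or lower in Silica + ATL-III than in Silica, stayed within 1.5 times the reported 4, 22 and 4 under every setting. With 1 library left out these ranged from 3 to 6, 16 to 23 and 3 to 5. The 11 members lower in Silica than in Control became 17 with library totals only, 24 with TPM scaling and 17 with no FPKM filter, and 4 to 14 with 1 library left out. The 10 members higher in Silica + ATL-III than in Control became 4 with library totals only, 5 with upper-quartile factors, 2 with TPM scaling and 2 with limma at each pseudocount (0.1, 0.5 and 1), and 2 to 11 with 1 library left out. The 1 member lower there became 3 with DESeq2, 2 with RLE factors, 4 with library totals only, 4 with upper-quartile factors, 12 with TPM scaling, 4 with limma at each pseudocount, 3 with the FPKM filter of 1, 5 with no filter and 2 with only the 6 libraries compared, and 1 to 4 with 1 library left out. Over all genes, the share lower in Silica than in Control was 5.81% with TMM, 11.1% with library totals only and 19.1% with TPM scaling. In Silica + ATL-III against Control the shares lower were 5.42%, 11.3% and 30.4%, and the shares higher were 8.60%, 6.12% and 4.59%. The cause of these shifts was not tested. Calls that held whichever library was left out numbered 3 of 4 and 4 of 11 (higher and lower, Silica against Control), 16 of 22 and 3 of 4 (Silica + ATL-III against Silica), and 2 of 10 and 1 of 1 (against Control).

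Among the members named by the rule, the signs that changed were of values called neither way. In Silica + ATL-III against Control, Aldh18a1 was -0.024 with library totals only, -0.20 with TPM scaling and -0.033, -0.05 and -0.023 with limma (pseudocounts of 0.5, 0.1 and 1). Cyp2s1 was -0.12 with library totals only, -0.051 with upper-quartile factors, -0.30 with TPM scaling, -0.13, -0.13 and -0.13 with limma, and -0.005 with the FPKM filter of 1. TPM scaling also gave -0.11 for Aldh3a2, -0.044 for Cyp1b1, -0.004 for Cyp2t4 and -0.003 for Fmo5. With 1 library left out, log2 changes ran for Aldh2 from -0.231 to 0.058 and for Cyp4f18 from -0.42 to 0.19 in Silica against Control, for Aldh1a2 from -0.46 to 0.05 in Silica + ATL-III against Silica, and for Aldh18a1 from -0.10 to 0.27, for Cyp1b1 from -0.036 to 0.43, for Cyp2f2 from -0.316 to 0.053 and for Cyp2s1 from -0.12 to 0.11 in Silica + ATL-III against Control.

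The labels do not say whether libraries of the same number in different groups belong together. Same-numbered libraries correlated in their deviations from group means at 0.07 to 0.10 between Silica and Control, -0.10 to -0.01 between Silica + ATL-III and Silica, and -0.09 to -0.05 between Silica + ATL-III and Control. Differently numbered libraries of Silica and Control correlated at -0.12 to 0.04, below every same-numbered value. For the other 2 pairs of groups the differently numbered values were -0.04 to 0.09 and -0.05 to 0.10. With a replicate block the members higher and lower were 5 and 10, 21 and 4, and 7 and 1. Calls that the block ended included those of Cyp2e1 in Silica against Control (-1.67, adjusted p = 0.064), Aldh3a2 in Silica + ATL-III against Silica (adjusted p = 0.081), and Cyp39a1 and Cyp4f15 in Silica + ATL-III against Control (adjusted p of 0.074 and 0.062).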
